A study of Mus musculus with 96 samples.

Results

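The proximal tubule of the kidney changes along its length, and its first stretch was compared here with a later one. PTS1 is the initial portion of the proximal convoluted tubule, just behind the glomerulus, and PTS2 is the straight portion that runs in the medullary rays of the cortex. The members were the 5 PTS1 pieces and the 8 PTS2 pieces among 93 libraries of microdissected segments, in a series of 96 samples. They were chosen by the segment and the mouse number in their names. Pieces of one mouse and segment were averaged, which left 3 PTS1 mice and 5 PTS2 mice. Every piece came from untreated male C57BL/6 mice aged 6 to 8 weeks, fed standard chow with free access to water, so no treatment, allele or agent separated the groups. Low-input RNA sequencing of polyadenylated RNA measured each piece, and levels are in TPM, a relative transcript level scaled for transcript length and to the same total in each library. A single PTS2 library has a name that matches its sample title in all but the last letter, and it entered as a PTS2 mouse with no mouse number. The series counts 53 mice and there were 53 combinations of mouse number and segment, so the same number in both segments was not taken as the same animal.

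The proximal tubule takes back most of the glucose, amino acids, phosphate, bicarbonate and filtered protein, and secretes organic anions and cations into the urine. Sodium-coupled carriers and hydrolases sit in its brush border, and exchangers in the basolateral membrane pass the products to the blood. Textbook accounts place bulk reabsorption by low-affinity carriers early in the tubule, and high-affinity carriers, secretion of organic anions and peroxisomal metabolism later. PTS1 and PTS2 differ in position and in being convoluted or straight, and a dissected piece is a bulk sample: fewer cells of a type and less RNA per cell cannot be told apart.

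Of 33793 genes that reached 1 TPM in at least 3 mice of any segment, 3233 (9.57%) differed between PTS1 and PTS2, with 1508 (4.46%) higher in PTS1 and 1725 (5.10%) higher in PTS2. A gene is called here when limma's adjusted p is under 0.05 and the difference on the log2(TPM + 1) scale is at least 1. That scale understates the difference of genes near 0. Among the 7506 genes with a mean of at least 10 TPM in either segment, 2027 (27.0%) were called, 701 (9.34%) higher in PTS1 and 1326 (17.7%) higher in PTS2, a higher share than over all genes tested. The gene groups below hold members on both sides of 10 TPM, so their counts stand beside both shares. Among protein-coding genes, 2679 of 17860 were called, 6.20% of the 17860 higher in PTS1 and 8.80% higher in PTS2. The genes higher in PTS2 were at a median of 35.3 TPM in PTS2 and those higher in PTS1 at a median of 8.28 TPM in PTS1, with 592 of the latter under 5 TPM. Differences of at least 5 on the log2 scale were seen in 51 genes higher in PTS1 and in 78 higher in PTS2. The median difference was 0.15 over all genes tested and -0.25 over genes with a mean of at least 10 TPM in either segment. When all levels were rescaled by median ratios, the median over all genes tested was 0.25. Then 66.5% of the calls were higher in PTS1, against 46.6% as deposited. Rescaling without mitochondrial transcripts, Gpx3 and Kap gave 57.7%. The calls depended on the pseudocount as well: there were 8926 at a pseudocount of 0.1, 77.3% of them higher in PTS1, and 1811 at a pseudocount of 5, 36.3% of them higher in PTS1.

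**Figure D1:**
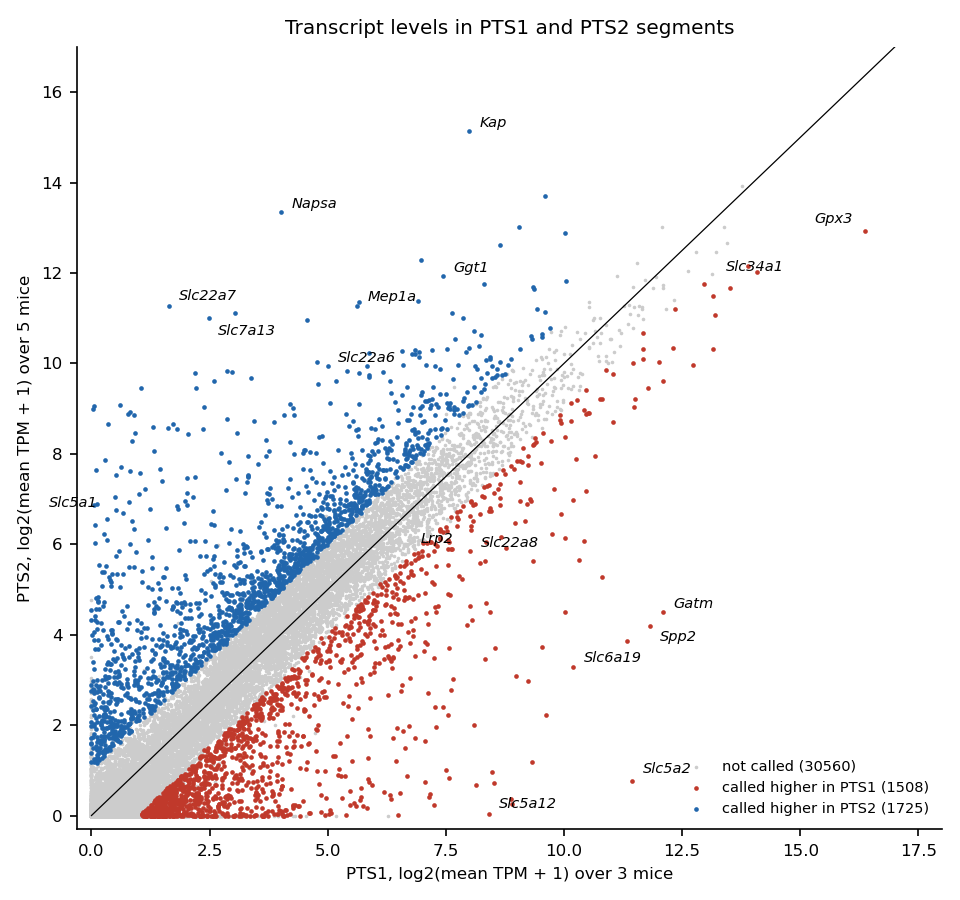
Mean level of each tested gene in PTS1 (horizontal axis, 3 mice) and PTS2 (vertical axis, 5 mice), both as log2(mean TPM + 1), with called genes in red (higher in PTS1) and blue (higher in PTS2). Slc5a2 and Gatm lie far below the line of equal levels, Kap, Napsa and Slc22a7 far above it, and many low genes called higher in PTS1 lie along the bottom.

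The libraries of the segments also differed as libraries. At 1 TPM or more, 13220 ± 560 genes were detected in PTS1 and 11592 ± 89.6 in PTS2 (SD over mice). Mitochondrial transcripts summed to 56246 to 82657 TPM in PTS1 mice and to 8410 to 22884 TPM in PTS2 mice. All 7 of 7 tested mitochondrial genes were called higher in PTS1, with a median difference of 2.18, and the other 6 on the list of 13 are listed at 0 in every piece. Olfactory and vomeronasal receptor genes were detected 32, 36 and 6 times in the PTS1 mice and 0 to 1.5 times in the PTS2 mice. All 3 measures separated the segments (genes detected, share of the 10 most abundant genes, receptor genes; two-sided exact permutation test over 3 and 5 mice, adjusted p = 0.0357 for each, the smallest this design allows). Counted at 5 TPM or more, the difference fell from 1629 to 79.77 genes detected (exact permutation test, adjusted p = 0.643) and from 23.67 to 0.1667 receptor genes (adjusted p = 0.75), so these 2 measures differed through genes of low level. The part of these measures in the calls of low genes was not tested. Pieces of different segments correlated at r = 0.825 to 0.863 across genes, and pieces of the same segment from different mice at 0.942 to 0.981.

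Marker genes matched the labels of all 13 pieces, with a trace of some PTS2 transcripts in a single PTS1 piece. Slc5a2, the low-affinity glucose carrier SGLT2, was 2761, 2473 and 3141 TPM in the PTS1 mice and 0.92, 0.62, 0.41, 1.11 and 0.375 TPM in the PTS2 mice. Slc22a6, the organic anion transporter OAT1, was 35.1, 48.3 and 9.42 TPM in PTS1 and 1183, 866, 1139, 1032 and 683 TPM in PTS2. Neither gene overlapped between the segments. Kap, an androgen-regulated kidney protein, was 1479 TPM in piece b of PTS1 mouse 1 and 3.95 to 23.4 TPM in the other 4 PTS1 pieces. Over the 10 genes highest in PTS2, that piece held a median of 0.688% of the PTS2 mean (0% to 4%). The medians of the other PTS1 pieces were 0.00264% to 0.0138%. Not all of these genes rose in piece b: Serpina1d and Serpina1f were listed at 0 there. Without piece b, 3378 genes were called, and all 169 genes chosen by rule for description kept their call or lack of it. PTS1 mouse 1 is above mice 2 and 3 in many of the PTS2 genes given below.

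**Figure D2:**
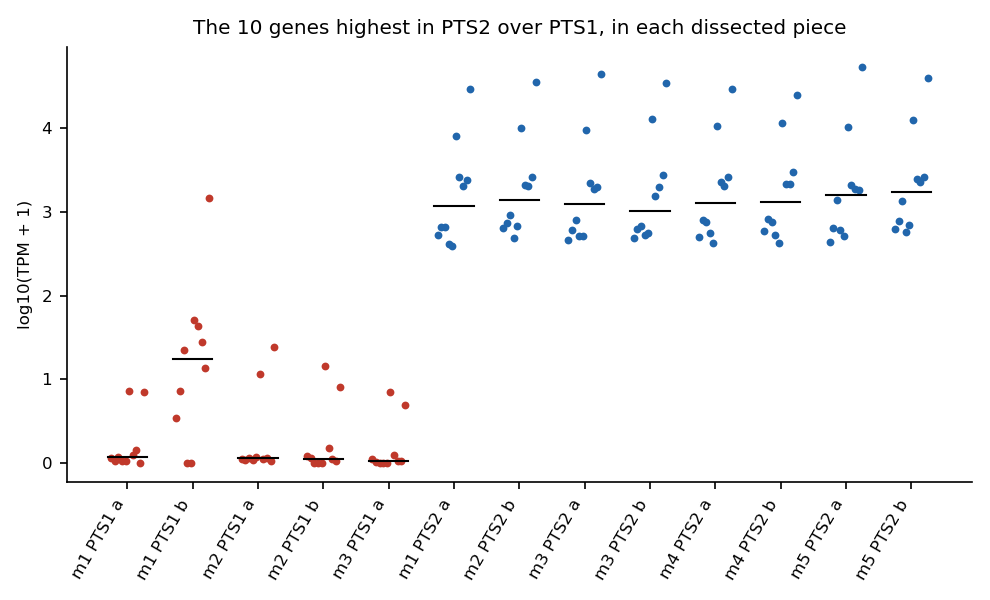
Level, as log10(TPM + 1), of the 10 genes with the largest difference towards PTS2 in each of the 13 pieces, where m is the mouse number and the letter the piece, each point is a gene and the bar the median. The median of piece b of PTS1 mouse 1 stands above those of the other PTS1 pieces and far below that of every PTS2 piece. Serpina1d and Serpina1f are at 0 in piece b.

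Sugar carriers differed member by member. Of 14 tested members of the sugar and monocarboxylate list, 5 were higher in PTS1, 3 were higher in PTS2 and 6 were not called (9.57% of all genes tested were called), and the median difference was -0.10. Slc5a2 was higher in PTS1 by 10.75 ± 0.48 (log2, SE; adjusted p = 8.94e-23). Slc2a2 (GLUT2), which passes glucose across the basolateral membrane, was 369, 249 and 339 TPM in PTS1 and 43.3, 47, 45.5, 57.6 and 48.9 TPM in PTS2, 6.58-fold lower. Slc5a1, the high-affinity glucose carrier SGLT1, was 0.66, 0.07 and 0.05 TPM in PTS1 and 90.4, 95.6, 86.2, 116 and 76.4 TPM in PTS2 (-6.28 ± 0.30). Slc5a10, which carries mannose and fructose, was 2.42, 0.17 and 0.03 TPM in PTS1 and 383 to 586 TPM in PTS2. Each of these genes separated all PTS1 mice from all PTS2 mice. Slc2a1 (GLUT1), the partner usually named with SGLT1, was at 8.76 ± 1.51 TPM in PTS1 and 14.7 ± 1.83 TPM in PTS2; its log2 difference of -0.68 was under the size required for a call. The sodium-coupled lactate carriers of the list differed in opposite directions. Slc5a12, the low-affinity form, was 372, 274 and 369 TPM in PTS1 and at most 0.05 TPM in PTS2. Slc5a8, the high-affinity form, was 1.42, 0.135 and 0.04 TPM in PTS1 and 193, 204, 213, 223 and 208 TPM in PTS2.

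Amino acid carriers split into a PTS1 set and a PTS2 set of similar number. Of 27 tested members, 9 were higher in PTS1 and 12 in PTS2, with a median difference of -0.66. Among the carriers of neutral amino acids, Slc6a19 (B0AT1) was 1327, 901 and 1283 TPM in PTS1 and 7.72, 6.77, 9.9, 12.3 and 7.29 TPM in PTS2, a 133-fold difference of means. Its relative Slc6a18 (B0AT3) went the other way, with 11.1, 5.32 and 4.08 TPM in PTS1 and 800, 868, 983, 987 and 825 TPM in PTS2, a 130-fold difference. Their partner protein Cltrn (collectrin) was at 5058 ± 355 TPM in PTS1 and 1302 ± 145 TPM in PTS2, and is named after its values were seen.

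The cystine and dibasic amino acid system also changed its parts. Slc3a1 (rBAT), the heavy subunit that takes either of 2 light chains to the brush border, was 310, 289 and 283 TPM in PTS1 and 1231, 1375, 1282, 1534 and 1303 TPM in PTS2. The light chain Slc7a9 was higher in PTS1 (513, 434 and 540 TPM, against 83.3, 88.1, 89.7, 99.4 and 80 TPM in PTS2). Slc7a13, the other light chain, carries aspartate, glutamate and cystine, and was 13.8, 0.125 and 0.05 TPM in PTS1 and 2060, 2059, 1942, 2090 and 2075 TPM in PTS2 (-10.03 ± 0.44, adjusted p = 3.84e-23). No PTS1 mouse overlapped a PTS2 mouse in any of the 3 genes, and the subunit and its PTS2 light chain were high in the same mice. On the basolateral side, the exit carriers Slc7a8 (373 ± 93.7 TPM in PTS1, 10.5 to 13.4 TPM in PTS2) and Slc7a7 (647 ± 20.5 and 48.5 ± 8.32 TPM) were higher in PTS1, as was their heavy subunit Slc3a2 (984 ± 151 and 101 ± 18.8 TPM), named after its values were seen. PTS2 was higher in the glutamate carrier Slc1a1, the glutamine carrier Slc38a3 (0.593 ± 0.298 and 102 ± 11.8 TPM) and Slc6a20b. The calls for Slc1a1 and Slc6a20b were lost with quantile normalization (-0.90 and -0.85).

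**Figure D3:**
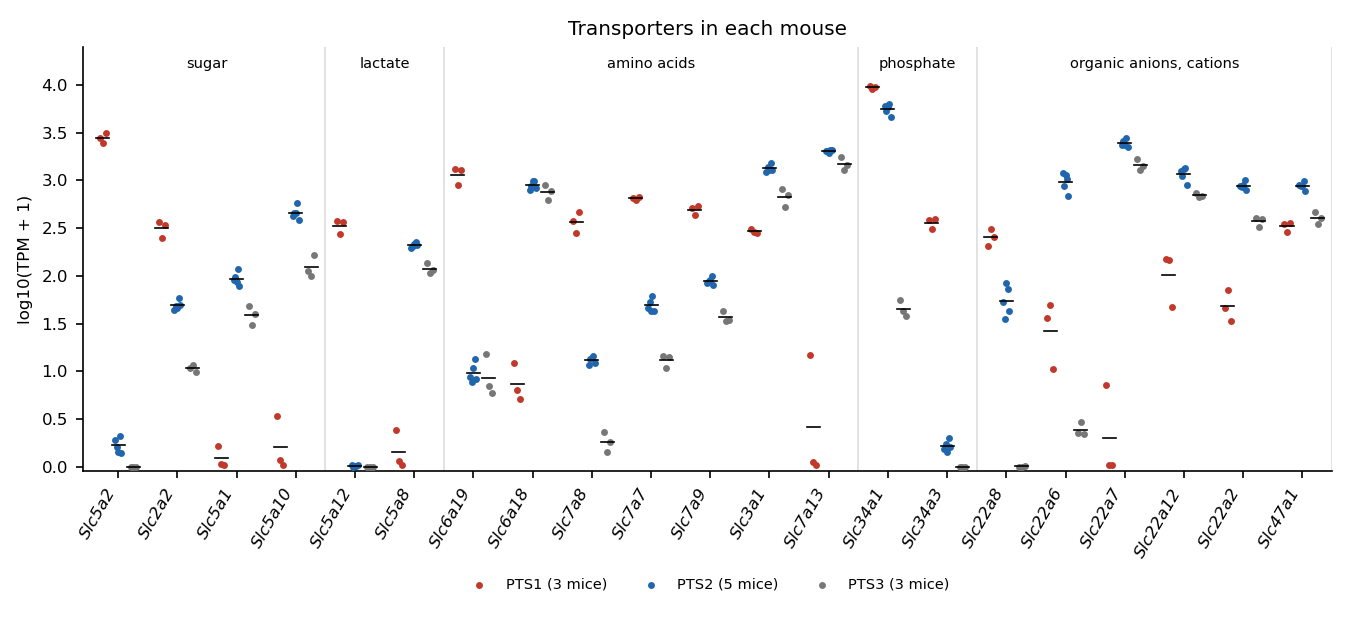
Level of transporter genes in each mouse as log10(TPM + 1), in red for PTS1 (3 mice), blue for PTS2 (5 mice) and grey for PTS3 (3 mice), with bars at the mean of the plotted values. Within sugar, lactate, amino acid and organic anion carriers, some members are high in PTS1 and low in PTS2, and others are near 0 in PTS1 and high in PTS2.

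Organic anion transporters were higher in PTS2 for the most part. Of 24 tested members, 15 were higher in PTS2 and 4 in PTS1, and the median difference was -1.91. Slc22a7 (OAT2) was 6.19, 0.05 and 0.05 TPM in PTS1 and 2380, 2595, 2352, 2791 and 2223 TPM in PTS2. Slc22a12 (URAT1), a urate exchanger of the brush border, was 150, 145 and 46.2 TPM in PTS1 and 1245, 1112, 1317, 1358 and 892 TPM in PTS2. Slc22a13, Slc22a19 and Slco1a1 had means under 2.5 TPM in PTS1 and of 374 to 544 TPM in PTS2. The exceptions were Slc22a8 (OAT3), a basolateral exchanger like OAT1, with 205, 311 and 257 TPM in PTS1 and 51.8, 34.2, 82.3, 72.1 and 41.6 TPM in PTS2, and Slc22a29, Slc17a4 and the efflux pump Abcc4. The efflux pump Abcc2 was at 58.8 ± 13.6 and 63.9 ± 8.52 TPM and its mice overlapped. Members of this family that lie side by side and resemble each other (Slc22a19, Slc22a29) can share reads, and their values are less certain.

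Slc22a6 and Slc22a8 lie near each other on chromosome 19 on the same strand and differed in opposite directions, by -5.20 ± 0.40 and 2.26 ± 0.32. Their promoters are shown to put the sequence beside these values. Each line holds the 250 bases before the gene's start from RefSeq (GRCm38.p6), 5′ to 3′ on the plus strand, at chr19:8617746-8617995 for Slc22a6 and chr19:8592932-8593181 for Slc22a8. Capitals mark GTTAAT, one of the motifs searched for below.

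Slc22a6: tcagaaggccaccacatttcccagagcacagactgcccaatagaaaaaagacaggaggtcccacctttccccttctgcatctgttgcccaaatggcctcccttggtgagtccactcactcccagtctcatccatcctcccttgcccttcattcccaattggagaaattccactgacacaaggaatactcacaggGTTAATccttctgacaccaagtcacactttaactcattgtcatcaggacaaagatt

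Slc22a8: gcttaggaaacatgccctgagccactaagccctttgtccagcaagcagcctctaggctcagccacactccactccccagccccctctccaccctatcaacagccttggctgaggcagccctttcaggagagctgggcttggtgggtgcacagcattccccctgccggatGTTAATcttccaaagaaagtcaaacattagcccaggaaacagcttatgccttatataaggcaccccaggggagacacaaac

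Both windows hold the letters once, 56 bases before the start of Slc22a6 and 81 bases before that of Slc22a8, so their presence does not tell these genes apart.

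Organic cation and carnitine carriers had 4 of 10 tested members higher in PTS2 and none in PTS1. Slc22a2 (OCT2), the basolateral entry carrier for cations, was 45.3, 70.4 and 33 TPM in PTS1 and 865, 849, 891, 1003 and 800 TPM in PTS2. Slc47a1 (MATE1), which passes the cations on to the urine, was at 331 ± 39.3 and 880 ± 76.9 TPM (-1.41 ± 0.41, adjusted p = 0.00827). Its call was lost without PTS1 mouse 2 (adjusted p = 0.0533) and with a pseudocount of 0.1. Slc22a4 and Slc16a9 were higher in PTS2 as well, 2.72-fold and 4.48-fold by mean TPM, the former not past the size threshold with quantile normalization (-0.94).

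Phosphate and dicarboxylate carriers differed member by member. Slc34a3 (NaPi-IIc) was 385, 307 and 398 TPM in PTS1 and 0.42 to 0.995 TPM in PTS2. Slc34a1 (NaPi-IIa), the main phosphate carrier of the adult tubule, was 9764, 9164 and 9579 TPM in PTS1 and 6058, 5367, 5845, 6368 and 4657 TPM in PTS2. Its mice did not overlap and its 1.68-fold difference of means was under the size required (0.76 ± 0.69, adjusted p = 0.569), with an SE shared over all segments. Slc20a2 (PiT-2) and the dicarboxylate carriers Slc13a2 and Slc13a3 were higher in PTS2, the last at 6.57 ± 2.68 and 224 ± 40.0 TPM. In the list of phosphate and sulfate carriers, 1 of 14 members was higher in PTS1 and 4 in PTS2.

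Both enzymes that set the level of active vitamin D had their higher level in PTS1. Cyp27b1, which makes calcitriol, was 78.4, 58.2 and 80.7 TPM in PTS1 and 0.15 to 0.765 TPM in PTS2. Cyp24a1, which degrades it, was 174, 28.2 and 45.1 TPM in PTS1 and 1.12, 2.33, 0.735, 4.52 and 2.69 TPM in PTS2, so PTS1 mouse 1 stood well above the other PTS1 mice. Some receptors of mineral hormones went the other way. Pth1r, the parathyroid hormone receptor, was 375, 410 and 281 TPM in PTS1 and 1007, 1044, 990, 1178 and 685 TPM in PTS2. Vdr (62.9 ± 11.6 and 150 ± 19.4 TPM) and Fgfr1 (9.51 ± 2.29 and 31.9 ± 5.27 TPM) were higher in PTS2 too, the call for Vdr being lost with a pseudocount of 0.1 (adjusted p = 0.0606) and with quantile normalization (-0.77). Kl, the FGF23 co-receptor klotho, was 135 ± 12.5 and 193 ± 24.5 TPM and was not called, though its mice did not overlap. Over the 12 genes of mineral hormone action, 2 were higher in PTS1 and 5 in PTS2, the latter 3 at a pseudocount of 0.1 and 2 with quantiles.

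Of 23 genes of acid-base transport, the sodium pump and potassium channels, 8 were higher in PTS1 and 3 in PTS2 (median 0.26). Car2, the cytosolic carbonic anhydrase, was 1410, 1255 and 1174 TPM in PTS1 and 62.7, 48.3, 45.1, 52 and 38.5 TPM in PTS2. Among the membrane-bound enzymes, Car12 (246 ± 22.7 and 17.6 ± 6.12 TPM) and Car14 (407 ± 51.6 and 70.6 ± 17.1 TPM) were higher in PTS1, and Car4 (108 ± 44.3 and 471 ± 92.1 TPM) in PTS2. Slc4a4, the basolateral bicarbonate exit carrier NBCe1, was 666, 494 and 611 TPM in PTS1 and 117, 111, 131, 123 and 108 TPM in PTS2. The sodium-proton exchangers of the brush border again divided. Slc9a3 (NHE3) was 45.3, 26.8 and 43 TPM in PTS1 and 12.3 to 17.6 TPM in PTS2, a call lost at a pseudocount of 0.1 (adjusted p = 0.0766). Slc9a8 (NHE8) was 21.1, 14 and 17.1 TPM in PTS1 and 521, 568, 524, 610 and 518 TPM in PTS2. The potassium channel gene Kcnk5 was 2.52-fold higher in PTS2, and its call was lost without PTS1 mouse 2 (-0.99, adjusted p = 0.152) and with quantile normalization.

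Water channel, junction and adhesion genes had 7 of 20 members higher in PTS2 and 1 in PTS1. Aqp1, the water channel of both tubule membranes, was 16, 30.8 and 7.94 TPM in PTS1 and 433, 498, 595, 584 and 485 TPM in PTS2, 28.5-fold higher. Epcam, an adhesion protein of many epithelia, was 0.34, 0.31 and 0.36 TPM in PTS1 and 28.3 to 42.1 TPM in PTS2. Cldn3, a tight-junction protein, had at most 0.05 TPM in PTS1 and 82.6 to 154 TPM in PTS2. All of these genes separated the mice, with PTS1 low throughout. Cldn2, which forms the leaky, cation-permeable junction of the proximal tubule, was 254 ± 27.9 and 410 ± 29.4 TPM. It was not called (-0.70 ± 0.33, adjusted p = 0.161), though its mice did not overlap.

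Of 28 endocytosis genes, 3 were higher in PTS1, 3 were higher in PTS2 and 22 were not called, beside 27.0% called over all genes at 10 TPM or more, and the median was -0.05. The receptors that capture filtered protein, Lrp2 (megalin) and Cubn (cubilin), were 107 ± 7.54 and 27.1 ± 6.52 TPM in PTS1 and 82.9 ± 6.48 and 23.0 ± 3.15 TPM in PTS2. Their log2 differences were 0.37 ± 0.24 (adjusted p = 0.361) and 0.21 ± 0.28 (adjusted p = 0.722). The mice of the segments did not overlap for Lrp2 and overlapped for Cubn. The adaptor Dab2 (429 ± 40.8 and 188 ± 8.04 TPM) and the lysosomal proteases Ctsl (1486 ± 117 and 481 ± 32.0 TPM) and Ctsb (1234 ± 167 and 586 ± 18.1 TPM) were higher in PTS1. Lrpap1, the receptor's chaperone, the chloride-proton exchanger Clcn4 and the protease Ctsh were higher in PTS2 by 2.25-fold to 2.47-fold. These are small differences, and some calls depended on a setting. Ctsb fell under the size required without PTS1 mouse 3 (0.96), Ctsh with median ratios (-0.99) and quantiles (-0.82), and Clcn4 with quantiles (-0.77).

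Brush-border hydrolases, which split peptides and sugars at the cell surface, differed widely and in both directions. Of 23 tested, 3 were higher in PTS1 and 9 in PTS2 (median -0.56). Dpep1, a dipeptidase, was 487, 542 and 477 TPM in PTS1 and 7.11, 5.43, 11.1, 10 and 3.95 TPM in PTS2. Alpl, alkaline phosphatase, was 989, 1028 and 1082 TPM in PTS1 and 54.9 to 93 TPM in PTS2, and the folate hydrolase Folh1 was 15.8-fold higher in PTS1. On the PTS2 side, Mep1a, the meprin alpha subunit, was 60.7, 34.2 and 50.4 TPM in PTS1 and 2260, 2586, 2402, 2882 and 2298 TPM in PTS2. The meprin beta subunit Mep1b was 3.12, 0.11 and 0.02 TPM in PTS1 and 665, 738, 618, 809 and 704 TPM in PTS2. Ace, which makes angiotensin II, was 0.67, 0.28 and 0.33 TPM in PTS1 and 97.7, 118, 104, 124 and 90.4 TPM in PTS2. Ggt1, which opens glutathione breakdown at the cell surface, was 171, 247 and 97.2 TPM in PTS1 and 3850, 4010, 3982, 4562 and 3175 TPM in PTS2. Both meprin subunits, Ace and Ggt1 were thus low in every PTS1 mouse and high in every PTS2 mouse.

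Of 19 enzymes of glucose and ammonia production, 2 were higher in PTS1, 2 were higher in PTS2 and 15 were not called. Pck1, which commits carbon to glucose production, was 1173, 2183 and 1077 TPM in PTS1 and 2092, 3028, 2023, 3393 and 2551 TPM in PTS2, and the mice overlapped (-0.88 ± 0.49, adjusted p = 0.267). G6pc, which releases free glucose, was 696, 864 and 629 TPM in PTS1 and 171, 174, 321, 283 and 155 TPM in PTS2, a call lost at a pseudocount of 0.1 (adjusted p = 0.0632). Fbp2 was 7.32-fold higher in PTS1. Khk, the fructose kinase, was 2.38-fold higher in PTS2 and under the size required with quantile normalization (-0.98). Of 18 glycolysis genes, Ldhb was higher in PTS1 (2812 ± 65.8 and 1034 ± 88.6 TPM), and Pkm (1.90 ± 0.265 and 37.9 ± 4.37 TPM), Pfkp and Ldhd were higher in PTS2. With median ratios the members higher in PTS1 were 5 in glucose production and 4 in glycolysis.

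Fatty acid and peroxisomal enzymes were higher in PTS2 in 19 of 37 members and higher in PTS1 in 5 (median -1.09). Fabp3, a fatty acid carrier of the cytosol, was 702, 522 and 588 TPM in PTS1 and 6.28, 8.26, 5.56, 6.94 and 7.03 TPM in PTS2. Acaa2, the last enzyme of mitochondrial beta-oxidation, was 1381, 1337 and 1420 TPM in PTS1 and 49.8 to 88.4 TPM in PTS2. Fabp1, the liver form of the fatty acid carrier, was low, at 18.3 ± 2.54 TPM in PTS1 and 0.118 ± 0.0202 TPM in PTS2. In PTS2 the fatty acid uptake protein Cd36 was 864, 766, 705, 678 and 884 TPM, against 13, 1.66 and 0.48 TPM in PTS1. Acsm3, which activates medium-chain acids, was 2599, 2094, 1868, 2215 and 2276 TPM in PTS2 and 21.1, 0.305 and 0.25 TPM in PTS1. Bdh1, a ketone body enzyme, was 0.815 ± 0.520 and 309 ± 28.0 TPM. Slc27a2 and Acadm, named after their values were seen, were among the most abundant members: Slc27a2, which takes up and activates long fatty acids, was 777 ± 87.9 and 13252 ± 1005 TPM, and Acadm 314 ± 25.2 and 3470 ± 345 TPM.

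Amino acid breakdown had 6 of 38 members higher in PTS1 and 14 in PTS2 (median -0.38). Hydroxyproline breakdown opens with Prodh2, which was 331, 347 and 386 TPM in PTS1 and 0.36, 0.14, 1.36, 2.36 and 0.47 TPM in PTS2. The glycine cleavage enzyme Gldc (153 ± 34.2 and 4.32 ± 1.89 TPM) and the tryptophan pathway enzyme Acmsd (218 ± 24.4 and 38.3 ± 8.42 TPM) were higher in PTS1 as well. PTS2 was higher in Dmgdh, which oxidises dimethylglycine (1.80 ± 0.261 and 168 ± 13.7 TPM), in Hpd of tyrosine breakdown (0.862 ± 0.646 and 80.1 ± 26.3 TPM) and in the transaminase Aadat (35.2 ± 5.57 and 783 ± 108 TPM). Creatine and arginine metabolism leaned to PTS1, with 6 of 15 members higher there and 2 in PTS2. Gatm, which makes the creatine precursor guanidinoacetate, was 4558, 3757 and 4720 TPM in PTS1 and 17.3, 10.3, 29, 35.2 and 16.1 TPM in PTS2 (7.74 ± 0.47). Gamt, the next enzyme towards creatine, was higher in PTS2, at 31.6 ± 5.17 and 85.7 ± 14.0 TPM, and fell under the size required with quantiles (-0.92). The arginine-forming enzyme Asl and the ornithine transaminase Oat were higher in PTS1 by 6.34-fold and 13.1-fold.

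**Figure D4:**
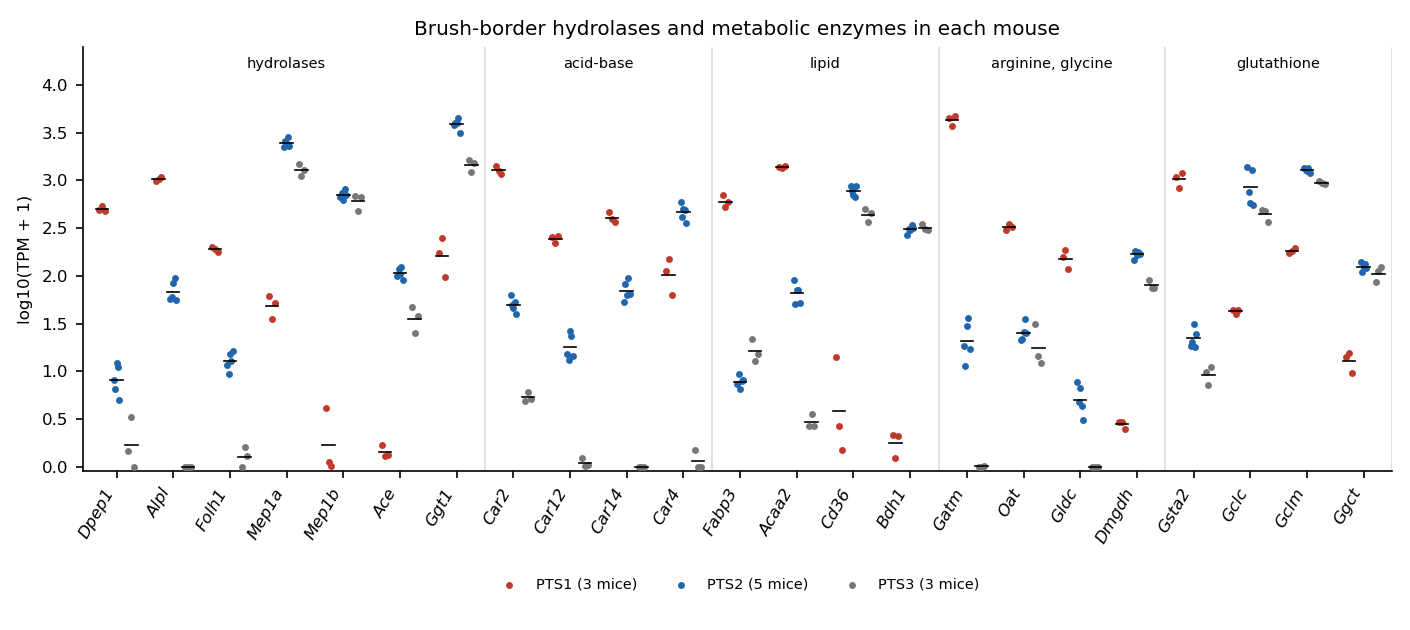
Level of brush-border hydrolases and metabolic enzymes in each mouse as log10(TPM + 1), in red for PTS1 (3 mice), blue for PTS2 (5 mice) and grey for PTS3 (3 mice), with bars at the mean of the plotted values. Every group holds a gene high in PTS1 and a gene high in PTS2, such as Dpep1 and Mep1a, Car2 and Car4, Fabp3 and Cd36, Gatm and Dmgdh, and Gsta2 and Gclc.

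Of 22 genes of glutathione and wider redox metabolism, 8 were higher in PTS2 and 1 in PTS1 (median -0.61). The single member higher in PTS1 was Gpx3. Gpx3, the secreted glutathione peroxidase and among the most abundant transcripts, was 77474, 74429 and 100598 TPM in PTS1 and 7011, 6598, 9771, 6812 and 8538 TPM in PTS2. Gclc, the catalytic subunit of the enzyme that limits glutathione synthesis, was 42.7, 39.2 and 43 TPM in PTS1 and 1386, 760, 581, 1281 and 550 TPM in PTS2. Its regulatory subunit Gclm was 171, 183 and 194 TPM in PTS1 and 1342, 1292, 1251, 1357 and 1184 TPM in PTS2. Both subunits were higher in every PTS2 mouse, and Gclc ranged more widely between PTS2 mice. Ggct, of glutathione breakdown, was 10.3-fold higher in PTS2.

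Of the listed cytochrome P450 enzymes, which act on drugs, sterols and fatty acids, 14 of 32 were higher in PTS2 and 3 in PTS1 (median -0.86); Cyp27b1 and Cyp24a1, both higher in PTS1, were counted with mineral hormone action instead. Cyp2a4 (3.59 ± 6.17 and 890 ± 283 TPM), Cyp7b1 (0.277 ± 0.144 and 401 ± 68.8 TPM) and Cyp2d9 (2.07 ± 1.90 and 379 ± 82.7 TPM) had the largest differences towards PTS2. Cyp2e1, which oxidises ethanol and small solvents, was 85.1, 61.5 and 20.3 TPM in PTS1 and 1171, 788, 1073, 710 and 1202 TPM in PTS2. The 3 listed members higher in PTS1 were relatives of Cyp2d9: Cyp2d26 (743 ± 93.8 and 12.3 ± 2.25 TPM), Cyp2d22 and Cyp2d12. A single P450 subfamily thus had members in both segments. Conjugating enzymes had 9 of 33 members higher in PTS1 and 7 in PTS2, including Ugt2b34 (89.0 ± 12.6 and 0.005 ± 0.00707 TPM) and Gsta2 (1036 ± 184 and 21.6 ± 5.48 TPM) in PTS1 and Ugt2b37, Ugt3a1 and Nat8 in PTS2. Close copies within the Cyp2d, Ugt2b and Gsta families can share reads, and these values are less certain.

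Androgen-regulated genes of the male mouse kidney were higher in PTS2 in 10 of 12 members and in PTS1 in none (median -3.21). Kap was 742, 15.2 and 3.95 TPM in PTS1 and 29994, 35546, 40040, 27410 and 47510 TPM in PTS2 (-10.84 ± 0.91, adjusted p = 2.15e-13). All mice were male, so the sexes were not compared.

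Secreted proteins were divided too, with 9 of 27 higher in PTS1 and 13 in PTS2. Spp2, a secreted phosphoprotein, was 3789, 3270 and 3724 TPM in PTS1 and 21.1, 17.1, 18.5, 14.7 and 14.3 TPM in PTS2. Gc, the vitamin D binding protein, was 289, 188 and 361 TPM in PTS1 and 0.335 to 1.06 TPM in PTS2. Apoe was 47.7-fold higher in PTS1. Ptgds, prostaglandin D synthase and outside the list, was 634, 234 and 531 TPM in PTS1 and at most 0.43 TPM in PTS2. On the other side, the serpins Serpina1d (0.0367 ± 0.0437 and 530 ± 123 TPM) and Serpina1f and the protease inhibitor Pzp were higher in PTS2; the serpins are close copies and their values are less certain. Napsa, an aspartic protease and not a member of the list, was 27.8, 11.9 and 6 TPM in PTS1 and 8114, 10166, 11344, 11211 and 11496 TPM in PTS2. The acetate-activating enzyme Acss1, also outside the list, was at 642 ± 105 and 1.27 ± 0.312 TPM.

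Transcription factors that were called were mostly higher in PTS2. Of 59 tested, 21 were higher in PTS2, 4 in PTS1 and 34 were not called (median -0.33). Hnf4a, a nuclear receptor that many proximal tubule genes depend on, was 86.6, 61.5 and 86.1 TPM in PTS1 and 154, 122, 155, 148 and 129 TPM in PTS2, a difference of -0.87 ± 0.28 under the size required. The Iroquois factors Irx1, Irx2 and Irx3 were under 1 TPM in every PTS1 mouse and at 4.45 to 22 TPM in PTS2 mice, with Irx2 at 0.457 ± 0.0493 and 13.7 ± 1.73 TPM. Cebpb, Esr1, Pparg, Mlxipl, Zbtb20 and Pax8 were higher in PTS2, by log2 differences from -1.32 for Pax8 to -3.13 for Cebpb; Pax8 lost its call with quantiles (-0.83). Towards PTS1, Osr2 was 91.9, 55.9 and 95.2 TPM there and 6.45 to 11 TPM in PTS2, and Maf was 16.7 ± 1.87 and 1.61 ± 0.163 TPM. Irx1, Pou3f3, Hnf4g and Nfib lost their calls at a pseudocount of 5.

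**Figure D5:**
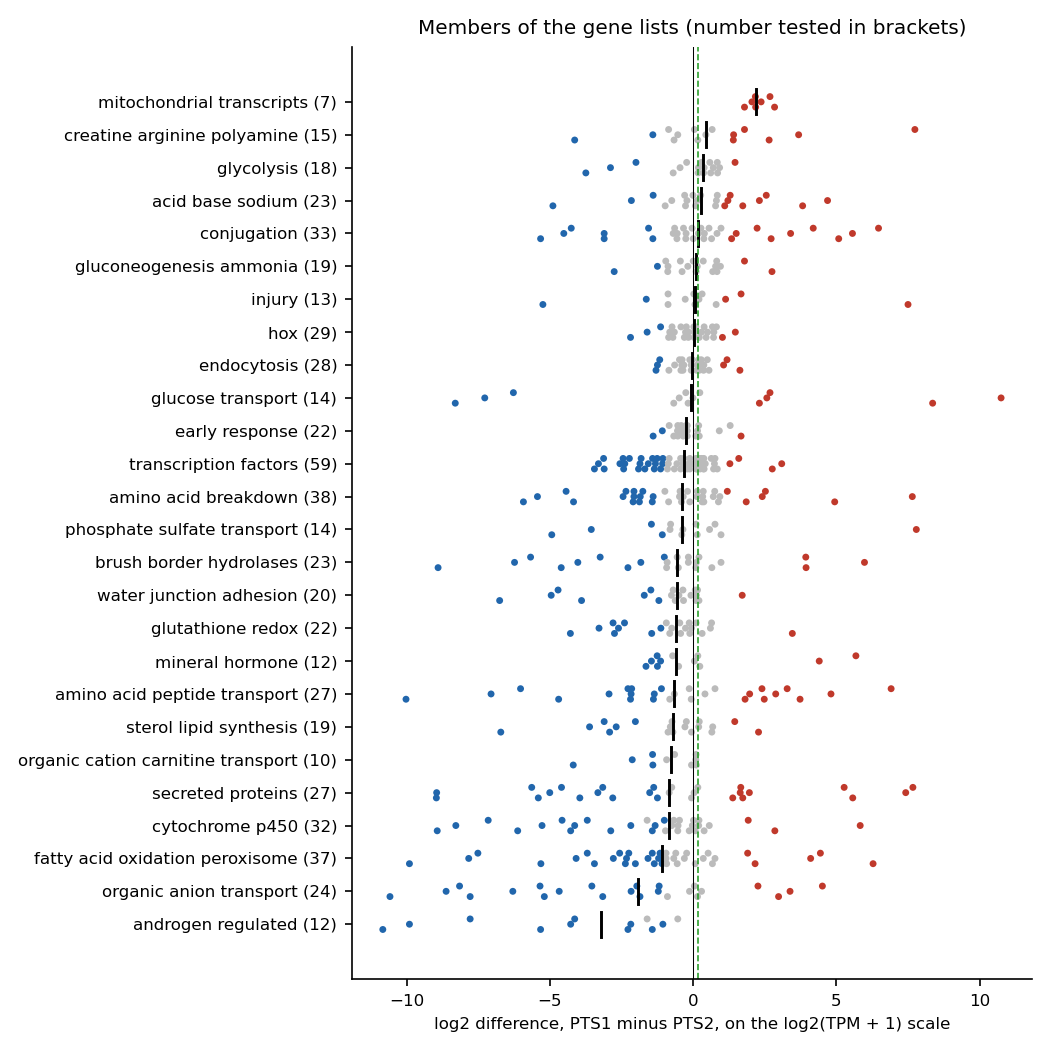
Difference between PTS1 and PTS2 on the log2(TPM + 1) scale for each tested member of the gene lists, in red where called higher in PTS1, blue where called higher in PTS2 and grey where not called; black bars are the list medians and the dashed green line the median of all genes tested, 0.15. Most lists hold called members on both sides, and organic anion transport and androgen-regulated genes lie mostly to the left. Over genes at 10 TPM or more in either segment the median was -0.25.

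Promoters were searched with 18 motifs of factors known in the tubule and of general promoter elements, chosen with results of these data known. The windows ran from 250 bases before to 50 bases after the start of 27025 genes, on both strands, and counts are over protein-coding genes with a mean of at least 10 TPM. A longer form of the letters marked above, GTTAAT followed after 1 base of any kind by ATT, was in 13 of 490 windows of genes higher in PTS1 (2.65%), in 2 of 974 of genes higher in PTS2 (0.205%) and in 15 of 4336 of genes not called (0.346%). The share over all windows was 0.470%. The shorter GTTAAT, which each of these also holds, was in 11.2%, 7.29% and 5.56% of the same 3 sets and in 8.24% of all windows. The full palindrome, which goes on to ATTAAC, was in none of the windows of these 3 sets. The longer form was picked for its contrast after the counts of all 18 motifs were seen. Other motifs differed between the sets too: AGGTCA was in 103 of 490, 159 of 974 and 651 of 4336 windows, and GGGCGG in 59%, 72.9% and 71%. No test was made, and a match is not evidence of binding. The windows of 3 genes higher in PTS1 are shown because the levels described above were several-fold or more apart. They are the 250 bases before the start (RefSeq, GRCm38.p6), 5′ to 3′ in the direction of the gene, at chr7:30493408-30493657 on the plus strand for Prodh2, chr5:89457899-89458148 on the minus strand for Gc, and chrX:164089937-164090186 on the plus strand for Cltrn. Capitals mark the match to the longer form.

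Prodh2: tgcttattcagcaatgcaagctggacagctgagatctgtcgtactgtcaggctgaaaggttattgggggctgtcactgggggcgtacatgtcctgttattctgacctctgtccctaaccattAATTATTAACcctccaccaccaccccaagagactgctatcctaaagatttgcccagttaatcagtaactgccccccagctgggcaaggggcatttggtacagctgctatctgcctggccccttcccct

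Gc: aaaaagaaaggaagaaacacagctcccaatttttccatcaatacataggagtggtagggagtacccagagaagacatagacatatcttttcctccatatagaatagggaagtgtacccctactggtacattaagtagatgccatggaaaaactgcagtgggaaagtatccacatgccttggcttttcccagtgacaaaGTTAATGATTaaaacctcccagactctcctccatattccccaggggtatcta

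Cltrn: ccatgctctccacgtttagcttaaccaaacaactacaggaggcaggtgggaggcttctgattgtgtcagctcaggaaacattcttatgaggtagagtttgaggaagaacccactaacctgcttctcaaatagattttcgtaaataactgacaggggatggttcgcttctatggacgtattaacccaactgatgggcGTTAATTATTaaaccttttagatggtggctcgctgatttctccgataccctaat

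The match begins 128 bases before the start of Prodh2, where it reads on the opposite strand, 52 bases before the start of Gc and 54 bases before that of Cltrn. The other 10 genes higher in PTS1 with the letters were Tmed6, Slc22a29, Rab3il1, Habp2, Igfbp1, G6pc, Atp6v0a4, Zfp871, Pcbd1 and F13b, listed after the search. The 2 genes higher in PTS2 were Glyctk (81.1 and 298 TPM) and the bile acid carrier Slc10a2 (0.695 and 16.5 TPM).

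PTS3, the last proximal segment, in the outer stripe of the medulla, was set beside both segments as values, with no test. Among the 701 genes at 10 TPM or more and higher in PTS1, the PTS3 mean was nearer to PTS2 than to PTS1 for 624 (89.0%), and among the 1326 higher in PTS2 for 938 (70.7%). Over genes not called it was 48.3%. Mitochondrial transcripts, higher in PTS1 than in PTS2, summed to 91485 to 125545 TPM in PTS3 mice, above every PTS1 and PTS2 mouse. Slc5a2, Slc34a3, Prodh2, Alpl and Gldc were listed at 0 in PTS3. Some PTS2 genes were as high or higher in PTS3, such as Kap (75375 ± 10622 TPM), Napsa (12562 ± 1441 TPM), Cyp7b1 (1068 ± 228 TPM) and Aadat (1608 ± 149 TPM). The PTS3 mean was under 10% of the PTS2 mean in 27 of the 1326 genes higher in PTS2 (2.04%), beside 157 of 7506 (2.09%) over all genes at 10 TPM or more, 14.84% of genes higher in PTS1 and 0.47% of genes not called. Among the 27 were Slc22a6 (1.45 ± 0.401 TPM in PTS3), Cyp2e1 (0.317 ± 0.548 TPM), Car4 (0.162 ± 0.280 TPM), Slc13a3 (listed at 0) and Ugt2b37 (1.29 ± 0.737 TPM). That the PTS2 mean is above both the PTS1 and the PTS3 mean in each of these genes follows from how the 27 were chosen.

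Markers of other cells were low beside these levels, and a few moved with the segment. Summed glomerular, stromal and red cell markers were at most 7.99 TPM in any PTS1 or PTS2 mouse, and 5 of 8 glomerular and all 10 stromal markers were under 1 TPM in both segments. Of the 3 markers of parietal cells of the glomerular capsule, Ncam1 was higher in PTS1 (4.03 ± 0.928 and 0.063 ± 0.0595 TPM), and is named after its values were seen, while Cldn1 (14.8 ± 5.03 and 13.5 ± 2.85 TPM) and Akap12, under 1 TPM in both, were not called. Umod, of the thick ascending limb, was 0.155 ± 0.108 TPM in PTS1 and 12.6 ± 4.05 TPM in PTS2, while Pvalb, Calb1, Cldn16, Cldn19 and Kcnj1 were under 1 TPM in both. The leukocyte markers summed to 45.3 to 81.1 TPM in PTS1 and 81.8 to 175 TPM in PTS2. Csf1r, of macrophages, was 0.66, 1.27 and 0.33 TPM in PTS1 and 54.2 to 79 TPM in PTS2, while Cd74 overlapped (38.6 ± 10.8 and 50.6 ± 31.7 TPM) and Itgam, Cd3e and Cd79a were under 1 TPM in both. Endothelial markers summed to 43.4 to 107 TPM in PTS1 and 59.1 to 143 TPM in PTS2, and none of the 10 was called. Thin limb markers summed to 28.9 to 47.9 TPM in PTS1 and 483 to 638 TPM in PTS2, where Aqp1, a gene of the proximal tubule itself, held most of the sum, and Slc14a2, Fst, Cldn4 and Bcl2l14 were under 1 TPM in both segments. Collecting duct markers summed to 51.1 to 62.4 TPM in PTS1 and 36.1 to 40.9 TPM in PTS2, most of it Aqp3 (50.7 ± 5.98 and 29.2 ± 3.24 TPM), which was not called. The 2 called members of that list, named after their values were seen, were higher in PTS2: Aqp2 (0.697 ± 0.672 and 5.15 ± 1.06 TPM) and Hsd11b2 (0.1 ± 0.139 and 1.43 ± 0.172 TPM). The part of Ncam1-expressing cells in the PTS1 values, and of Umod-, Aqp2- or Csf1r-expressing cells in the PTS2 values, was not tested.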

How the data were processed

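TPM values per gene were deposited by the authors for 93 microdissected libraries and 54532 genes; each library summed to the same total (999999.4 to 1000000.6), so depth and counting error are unknown. Per the submitters' processing notes, STAR 2.5.4a, RSEM 1.3.0, Cell Ranger 3.0.2 and Seurat were used, with no role given; the genome build is not given in the sources used here. The authors' 14 mean columns and the single-cell runs were not used. Pieces of one mouse were averaged as log2(TPM + 1). limma 3.58.1 (trend) fitted 53 mouse means in 15 groups, on 33793 genes with at least 1 TPM in 3 mice, with Benjamini-Hochberg adjustment over all of them. Its p-values rest on the spread within segments, pooled over the mice of all 15 groups, and not on PTS1 and PTS2 mice alone. A gene whose PTS1 and PTS2 mice do not overlap can therefore still have a large adjusted p. PTS1 against PTS2 was also tested on simulated data with 33793 genes. The fit recovered 93.5%, 99.5% and 100% of 200 genes changed by 1.5, 2 and 3 on the log2 scale. Other genes called numbered 4, 7 and 4. The changed genes were drawn from those of higher level in PTS2, with normally distributed spread, so recovery of low genes was not tested. Library measures had an exact permutation test.

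Members and gene lists were chosen with earlier results of these data known. Named genes were the 10 largest called differences in each direction (protein-coding, at least 10 TPM, mice not overlapping), up to 3 called members per list and direction at 10 TPM or more, 40 genes always named, called transcription factors of at least 5 TPM, and markers of other cells at 10 TPM or more. Of these 169 genes, 118 have a RefSeq promoter entry. Of the identifiers, 99.77% are in GENCODE M21. Alternatives were another pseudocount, filter, scaling, set of samples, averaging, a replicate block and each mouse left out; leaving out piece b of PTS1 mouse 1, rescaling without mitochondrial transcripts, Gpx3 and Kap, and keeping only genes of at least 10 TPM were added after seeing the data. Some genes are not reported here.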

Additional observations from a re-analysis of the deposited data

Results flagged for a closer look

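Sets of 5 PTS2 values (named genes and library measures) numbered 160. In 6 of them a mouse was set apart from the other 4 by more than Dixon's limit. Chance gives about 1 in 20, so the 6 were no more than chance would give. Mouse 1 was lowest for Cubn (17.7 TPM, others 23.2 to 25.8), Slc13a2 (99 TPM, others 143 to 156), Scd1 (57.1 TPM, others 120 to 147) and Slc22a13 (347 TPM, others 481 to 515). Mouse 4 was lowest for Ugt2b37 (292 TPM, others 427 to 458). Mouse 3 was lowest for Slc7a13 (1942 TPM, others 2059 to 2090). Sets of 3 mice, as in PTS1, were left out of this comparison by rule. For every gene here except Cubn, the lowest PTS2 mouse was still above all PTS1 mice.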

How the results depend on the processing

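The calls were 3233 in all and 1508 higher in PTS1. They were 8926 and 6900 with a pseudocount of 0.1, 1811 and 658 with a pseudocount of 5, and 2027 and 701 when only genes of at least 10 TPM were counted; 2991 were higher in PTS1 with median ratios. The counts higher in PTS2 stayed between 1153 and 2026 under these and the other settings that kept all genes. Leaving out each mouse in turn gave 2960 to 3237 calls. The library differences then ran from 1334 to 1891 genes detected, 6.795 to 7.416 percentage points for the 10 most abundant genes and 18 to 33 receptor genes, with adjusted p from 0.0571 to 0.0952, above 0.05 because fewer mice cannot give a smaller p. At a threshold of 5 TPM the differences were 79.77 genes detected (adjusted p = 0.643) and 0.1667 receptor genes (adjusted p = 0.75; exact permutation tests).

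Genes that were not called changed sign. Cldn1 (0.10) was -0.02 with every piece as a sample and -0.15 to 0.28 with a mouse left out. Cd74 (-0.11) was 0.07 with median ratios, 0.14 with quantiles, 0.04 rescaled without mitochondrial transcripts, Gpx3 and Kap, and -0.56 to 0.15 with a mouse left out. Abcc2 (-0.13) was 0.05, 0.14 and 0.02 under the same 3 scalings and 0.13 with the replicate block. The causes were not tested. Of 72 list counts, 10 moved by over 1.5 times with quantiles, 9 and 8 with pseudocounts of 0.1 and 5, 6 with median ratios, 6 with the rescaling above, and 0 to 3 under each other setting. They include, beside the mineral hormone genes, endocytosis genes higher in PTS2 (3, then 1 with quantiles), phosphate carriers higher in PTS1 (1, then 2 under these scalings) and collecting duct markers higher in PTS2 (2, then 6 with quantiles). Besides those given in the report, Jund (-1.08) lost its call with median ratios, quantiles, rescaling, a pseudocount of 5 and without PTS1 mouse 2 (-0.76), and Akr1b3, Pax8 and Kcnk5 with quantiles. Plvap (-1.02) was called when only PTS1 and PTS2 mice were fitted (adjusted p = 0.0496).

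The replicate block gave 3542 calls, 1795 of them higher in PTS1, and held 3037 (93.9%) of the main calls. Deviations of same-numbered mice correlated at r = -0.053 for number 1 and 0.08 for number 3, across 6696 genes. The other pairs ran from -0.159 to 0.127. Numbers 1 and 3 alone are too few to decide whether the numbers pair the samples.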

Other observations

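Some genes of lipid synthesis also differed between the segments. Of 19 sterol and lipid synthesis genes, 6 were higher in PTS2 and 2 in PTS1. Scd1, which desaturates fatty acids, was 0.125, 0.065 and 0.04 TPM in PTS1 and 57.1, 120, 132, 147 and 134 TPM in PTS2. Sqle, of cholesterol synthesis, was 8.94-fold higher in PTS2. In contrast, Fdps, of the same pathway, was higher in PTS1 (41.7 ± 8.34 and 15.1 ± 5.11 TPM).

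Of 22 early-response genes, which rise when tissue is handled, 1 was higher in PTS1 (Klf6, 22.1 ± 0.877 and 6.50 ± 2.20 TPM) and 2 in PTS2, beside 9.57% called over all genes tested. Jund, among those higher in PTS2, lost its call under the settings given above. Among the 13 tested injury genes, 3 were higher in PTS1 and 2 in PTS2. Spp1 (osteopontin) was 2492, 2060 and 3174 TPM in PTS1 and 8.86, 11.3, 21.1, 14.4 and 12.2 TPM in PTS2. Clu (clusterin) went the other way, at 0.455, 0.285 and 0.73 TPM in PTS1 and 57.3, 50.9, 64.7, 66.4 and 45.2 TPM in PTS2. Of 29 Hox genes, 2 were higher in PTS1 and 3 in PTS2, among them Hoxb2 (4.12 ± 0.537 and 14.7 ± 1.32 TPM) and Hoxb6 (2.02 ± 0.435 and 12.7 ± 0.331 TPM).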
